A study of Mus musculus with 8 samples.

Results

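The nucleosome remodelling and deacetylase complex, NuRD, was followed through the RNA of 8 of its subunits in pools of 2-cell mouse embryos. The subunits were the remodeller Chd3, the scaffold proteins Mta1 and Mta2, the linkers Gatad2a and Gatad2b, the methyl-CpG binder Mbd2 and the histone binders Rbbp4 and Rbbp7. Each was read from the probesets that carry its symbol alone, taking the brightest by its mean over the arrays, and the rule itself used no measured difference. All 8 had such a probeset, among 14995 genes in all, and all 8 lay above the filter on dim probesets that left 11444 genes for testing.

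The embryos differed in their fathers, and the question was how the RNA of the embryo varies with the kind of sire. The KDM1A TG group came from males carrying a transgene for KDM1A, a demethylase of histone H3 lysine 4 (3 pools). The nonTG group came from non-transgenic males of that line (2 pools), and the control group from C57BL/6 males (3 pools). All mothers were C57BL/6 females given 5 IU each of eCG and hCG, and the oviducts were rinsed for embryos at 46 to 48 hours from the hCG injection, giving pools of 26 on average. Embryos are named here after the sire. The genotype label of each pool, KDM1A TG, nonTG or C57BL/6, is taken here as the kind of sire. Which embryos carried the transgene, its promoter, the ages of the mice and the number of males behind each pool are not stated in the sample labels. A p-value here therefore sets a difference of group means against the scatter among pools, part of which may be technical. limma estimates that scatter for each gene with help from all genes.

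NuRD joins 2 activities in 1 complex: a CHD protein moves nucleosomes with the energy of ATP, and histone deacetylases remove acetyl groups from histone tails. MTA proteins hold the deacetylases together with RBBP4 and RBBP7, GATAD2 proteins link this core to the remodeller, and MBD2 can bring the complex to methylated CpG sites, where its relative MBD3 largely lacks that binding. Many subunits come in pairs or trios of related genes that substitute for each other, and KDM1A has been found together with NuRD in mouse embryonic stem cells. At the 2-cell stage the mouse embryo replaces RNA stored in the egg with its own, so a level measured here can hold both.

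None of the 8 subunits passed limma's test in any comparison. In KDM1A TG against C57BL/6 embryos 0 of 8 passed at an adjusted p under 0.05, where 0.725% of all genes did. For nonTG against C57BL/6 the count was again 0, with 0.131% of all genes, and for KDM1A TG against nonTG it was 0, with 0.0437%. At an unadjusted p under 0.05 the members reached 1 of 8 in each comparison, which was Rbbp4 against C57BL/6 in both and Gatad2b between KDM1A TG and nonTG. The share of all genes at that level was 14.2%, 8.22% and 6.41% in the same order, so 1 of 8 is close to the background. limma's F test for any difference among the 3 kinds of sire passed 0 of 8 (0.778% of all genes) and, unadjusted, again Rbbp4 alone (11.1% of all genes).

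**Figure D1:**
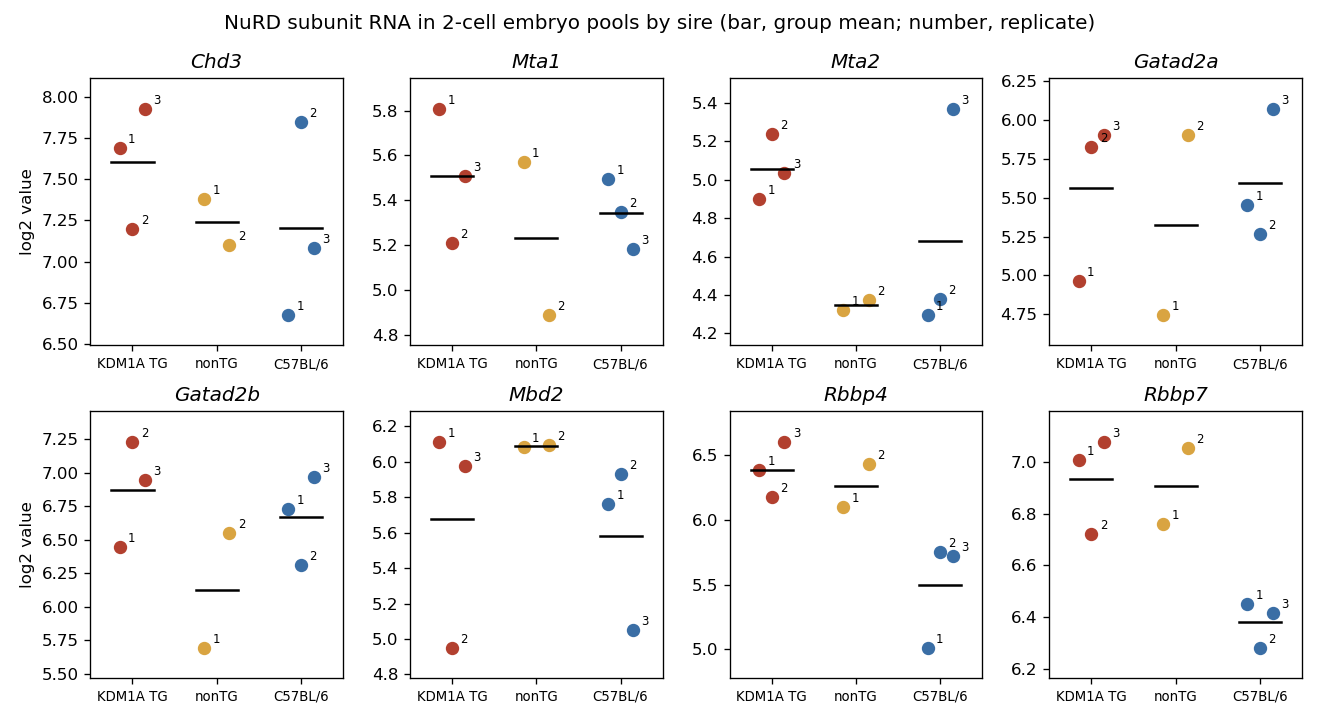
Deposited log2 value (vertical axis, a separate range for each panel) of each NuRD subunit in the 8 arrays, by kind of sire. Points are arrays with their replicate number and bars are group means; for Rbbp4 the KDM1A TG and nonTG arrays lie between 6.10 and 6.60, above the C57BL/6 arrays at 5.01 to 5.75.

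The histone binders had the widest separation from the C57BL/6 arrays. Rbbp4, a WD-repeat protein that binds histone H4 and also serves in the PRC2 and CAF-1 complexes, had log2 values of 6.39, 6.18 and 6.60 in KDM1A TG embryos and 6.10 and 6.44 in nonTG embryos. The C57BL/6 arrays read 5.01, 5.75 and 5.72. On this scale a difference of 1 is a 2-fold difference in signal. Every array of either line group therefore lay above every C57BL/6 array, and the line groups overlapped each other. The difference of KDM1A TG from C57BL/6 was 0.89 (1.85-fold, 95% interval 1.18 to 2.90, SE 0.32 on the log2 scale, limma adjusted p = 0.195). The difference of nonTG from C57BL/6 was 0.77 (1.70-fold, 95% interval 1.03 to 2.81, limma adjusted p = 0.567). The 2 differences are measured from the same C57BL/6 arrays. In a pool, fewer cells of a type and less RNA per cell cannot be told apart. The lowest C57BL/6 array, replicate 1, bears on both: without it the differences were 0.65 and 0.53.

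Rbbp7, the close relative of Rbbp4 that is also found with the histone acetyltransferase HAT1, read 7.01, 6.72 and 7.08 in KDM1A TG and 6.76 and 7.05 in nonTG arrays, against 6.45, 6.28 and 6.42 in C57BL/6 arrays. Here too the arrays of each line group lay above the C57BL/6 arrays. The differences were smaller, at 0.55 (95% interval -0.09 to 1.19, limma adjusted p = 0.42) for KDM1A TG and 0.52 (-0.19 to 1.24, adjusted p = 0.701) for nonTG. Between KDM1A TG and nonTG, Rbbp4 differed by 0.12 (-0.60 to 0.85) and Rbbp7 by 0.03 (-0.69 to 0.74). These intervals leave room for differences of up to about 1.8-fold in Rbbp4, so likeness of the line groups was not shown.

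Arrays that did not overlap were common among all genes. In KDM1A TG against C57BL/6 they were 2 of 8 members on the higher side (Rbbp4 and Rbbp7), where 14.5% of all genes stood that way, and 0 on the lower side (5.34%). In nonTG against C57BL/6 they were 3 higher (Rbbp4, Rbbp7 and Mbd2, background 15.4%) and 0 lower (9.41%). In KDM1A TG against nonTG 1 was higher (Mta2, background 16.0%) and 0 lower (6.38%). Placed among the differences of all genes tested, Rbbp4 stood at the 96.1 percentile for KDM1A TG and the 96.0 percentile for nonTG, and Rbbp7 at 81.6 and 87.8.

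**Figure D2:**
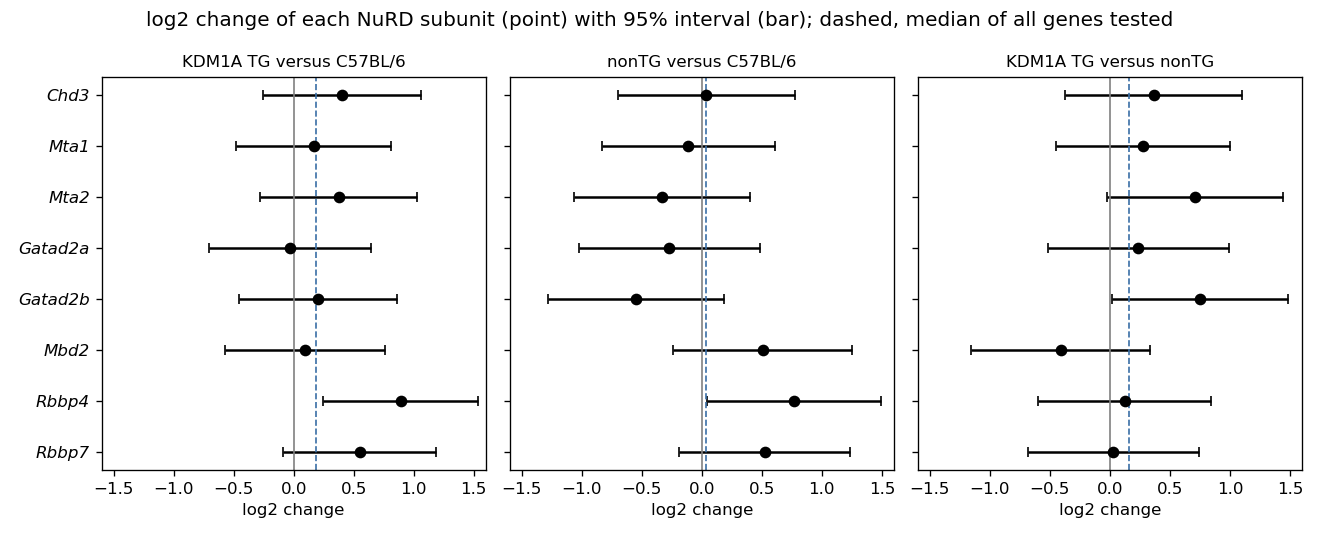
log2 change of each NuRD subunit (points) with its 95% interval (bars) in the 3 comparisons. The solid line marks 0 and the dashed line the median of all genes tested (0.18, 0.04 and 0.16); the intervals of Rbbp4 against C57BL/6 and of Gatad2b between KDM1A TG and nonTG lie above 0 before adjustment for the number of genes.

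The starts of the Rbbp4 and Rbbp7 genes are shown because these were the members whose arrays stood apart from C57BL/6 in the same direction in both line groups. The arrays measured RNA and not these sequences. Both come from RefSeq (build GRCm38.p6), run 5′ to 3′ on the strand of the gene from 250 bases before its start to 50 after, and carry in capitals each match to the GC box (GGGCGG) or the CCAAT box (CCAAT) on either strand. The Rbbp4 window is chr4:129335321-129335620 on the minus strand and the Rbbp7 window is chrX:162760122-162760421 on the plus strand.
Rbbp4: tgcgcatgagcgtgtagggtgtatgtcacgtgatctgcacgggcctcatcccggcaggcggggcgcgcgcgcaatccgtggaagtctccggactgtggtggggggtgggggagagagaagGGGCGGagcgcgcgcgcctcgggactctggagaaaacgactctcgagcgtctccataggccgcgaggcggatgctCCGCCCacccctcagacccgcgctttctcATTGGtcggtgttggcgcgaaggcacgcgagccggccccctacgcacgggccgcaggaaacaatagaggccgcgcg
Rbbp7: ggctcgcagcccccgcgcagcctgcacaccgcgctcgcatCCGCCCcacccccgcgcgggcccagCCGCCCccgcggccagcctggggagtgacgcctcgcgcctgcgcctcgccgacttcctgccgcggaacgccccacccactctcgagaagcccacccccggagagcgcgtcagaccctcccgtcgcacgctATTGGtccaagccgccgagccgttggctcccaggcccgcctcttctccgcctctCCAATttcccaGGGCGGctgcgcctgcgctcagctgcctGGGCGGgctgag

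The Rbbp4 window held 2 GC boxes and 1 CCAAT box, and the Rbbp7 window 4 GC boxes and 2 CCAAT boxes, with no overlap between the motifs. Of 32851 promoter windows of the same length, 35.7% held a GC box and 37.4% a CCAAT box. Neither window held the TATA box TATAAA (13.6% of windows), the cAMP response element TGACGTCA (1.79%), the E2F forms TTTGGCGC (0.514%) and TTTCCCGC (1.07%), or the ETS form CCGGAAGT (3.89%). Both were rich in CpG, the pair of letters at which mammalian DNA is methylated, with 39 CpG in Rbbp4 and 38 in Rbbp7 against a median of 7 over all windows. Of the members, 6 had an entry, and Mta1 held 50 CpG, Mta2 30, Gatad2a 21 and 26 at 2 starts, and Gatad2b 22 and 16 at 2 starts. These are counts of letters and say nothing about binding or methylation in the embryo.

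Mbd2, the subunit that recognises methylated CpG, read 6.11, 4.95 and 5.98 in KDM1A TG embryos and 6.09 and 6.10 in nonTG embryos. C57BL/6 embryos read 5.76, 5.93 and 5.05. The nonTG arrays lay just above the highest C57BL/6 array, and the KDM1A TG arrays spanned the whole range. KDM1A TG differed from C57BL/6 by 0.10 (95% interval -0.57 to 0.76, limma adjusted p = 0.897), nonTG from C57BL/6 by 0.51 (-0.24 to 1.25, adjusted p = 0.72) and KDM1A TG from nonTG by -0.41 (-1.16 to 0.33, adjusted p = 0.847). A single array in each of 2 groups, KDM1A TG replicate 2 and C57BL/6 replicate 3, set the spread. Without KDM1A TG replicate 2 its difference from C57BL/6 was 0.46, and without C57BL/6 replicate 3 it was -0.17. The difference of KDM1A TG from nonTG was -0.047 without KDM1A TG replicate 2.

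The linkers Gatad2a and Gatad2b, which join the MBD and deacetylase core to the CHD remodeller, had no group that stood apart. Gatad2b read 6.44, 7.23 and 6.95 in KDM1A TG arrays and 5.69 and 6.55 in nonTG arrays, against 6.73, 6.31 and 6.97 in C57BL/6 arrays. The lowest nonTG array lay under all others and the highest overlapped KDM1A TG. KDM1A TG stood 0.75 above nonTG (1.68-fold, 95% interval 1.01 to 2.80, SE 0.37 on the log2 scale, limma adjusted p = 0.775), nonTG differed from C57BL/6 by -0.55 (-1.28 to 0.19, adjusted p = 0.699) and KDM1A TG from C57BL/6 by 0.20 (-0.46 to 0.86, adjusted p = 0.775). Without nonTG replicate 1 the first 2 of these differences were 0.32 and -0.12. Gatad2a read 4.96, 5.83 and 5.90 in KDM1A TG, 4.75 and 5.90 in nonTG, and 5.45, 5.27 and 6.07 in C57BL/6 arrays. Its 3 groups overlapped throughout, with differences of -0.03, -0.27 and 0.24 in the order KDM1A TG against C57BL/6, nonTG against C57BL/6 and KDM1A TG against nonTG (limma adjusted p from 0.847 to 0.967).

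Of the MTA scaffolds, which recruit HDAC1 and HDAC2, Mta2 was the member whose KDM1A TG arrays lay wholly above the nonTG arrays. It read 4.90, 5.24 and 5.04 in KDM1A TG and 4.32 and 4.37 in nonTG embryos, and 4.30, 4.38 and 5.37 in C57BL/6 embryos. The nonTG arrays sat beside the lower 2 C57BL/6 arrays, while C57BL/6 replicate 3 was the highest of all 8. KDM1A TG exceeded nonTG by 0.71 (1.63-fold, 95% interval 0.98 to 2.71, limma adjusted p = 0.78). Against C57BL/6 the differences were 0.38 (-0.28 to 1.03, adjusted p = 0.574) for KDM1A TG and -0.33 (-1.06 to 0.40, adjusted p = 0.81) for nonTG, and without C57BL/6 replicate 3 they were 0.72 and 0.01. That of KDM1A TG was 0.19 without C57BL/6 replicate 1 and 0.22 without C57BL/6 replicate 2.

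Mta1, its relative, read 5.81, 5.21 and 5.51 in KDM1A TG and 5.57 and 4.89 in nonTG arrays, against 5.50, 5.35 and 5.18 in C57BL/6 arrays. The groups overlapped, and the differences were 0.17, -0.11 and 0.28 in the same order as for Gatad2a (limma adjusted p from 0.815 to 0.936). Chd3, a remodelling ATPase that can take the place of CHD4 in the complex, read 7.69, 7.20 and 7.92 in KDM1A TG, 7.38 and 7.10 in nonTG, and 6.68, 7.85 and 7.08 in C57BL/6 arrays. C57BL/6 alone spanned 1.17 on the log2 scale, more than any difference between groups, which were 0.40, 0.04 and 0.36 (limma adjusted p from 0.555 to 0.982). The first was 0.14 without C57BL/6 replicate 1 and 0.72 without C57BL/6 replicate 2. Dropping KDM1A TG replicate 2 gave 0.60, and dropping replicate 3 of that group 0.24. A second, dimmer Chd3 probeset read 5.13, 3.75 and 5.14 in KDM1A TG, 4.50 and 4.07 in nonTG, and 4.16, 4.45 and 4.13 in C57BL/6 arrays. With both Chd3 probesets averaged the KDM1A TG difference from C57BL/6 was 0.41.

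**Figure D3:**
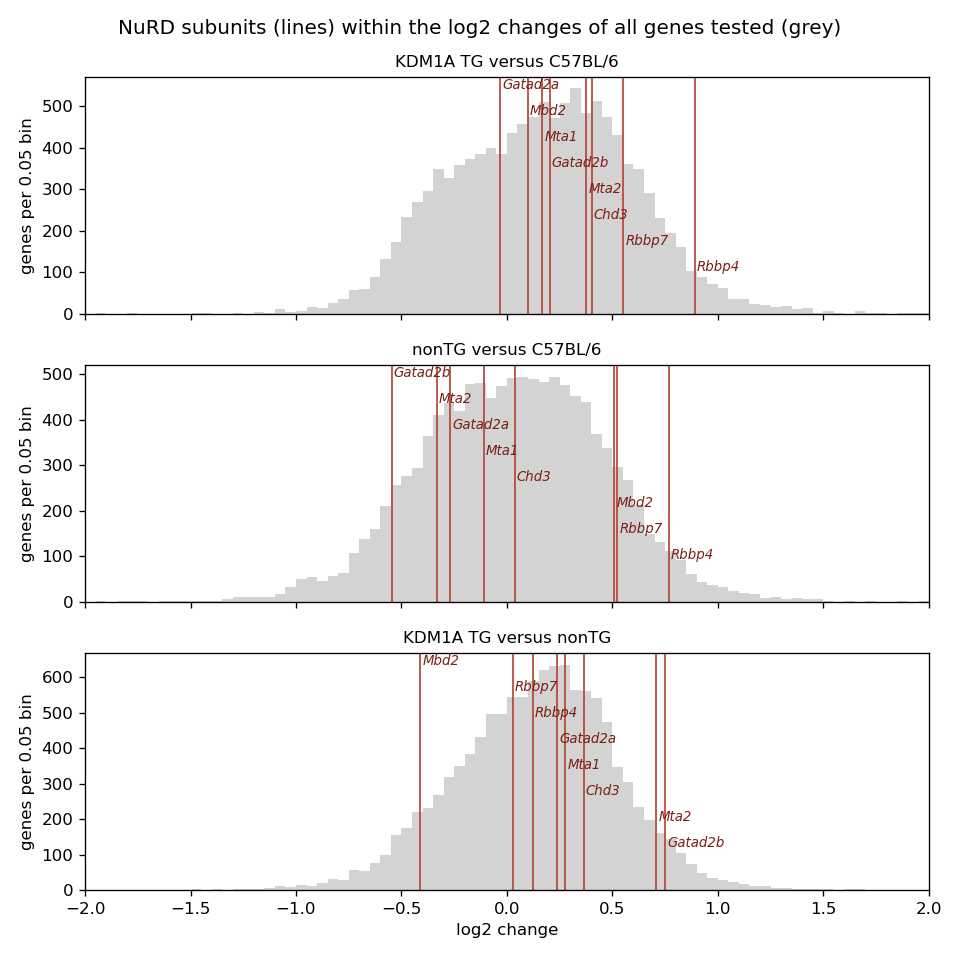
Number of genes (vertical axis, per bin of 0.05) at each log2 change (horizontal axis) among the 11444 genes tested, with the 8 NuRD subunits as vertical lines. Rbbp4 lies toward the upper end in both comparisons with C57BL/6, and Mta2 and Gatad2b do so for KDM1A TG against nonTG, while Mbd2 lies toward the lower end there.

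As a group the members lay near the rest of the genes. Their median difference for KDM1A TG against C57BL/6 was 0.29, with 7 of 8 above 0, where the median of all genes was 0.18 and 64.9% of them were above 0. For nonTG against C57BL/6 it was -0.04 with 4 of 8 above 0 (all genes 0.04 and 53.2%), and for KDM1A TG against nonTG 0.26 with 7 of 8 above 0 (all genes 0.16 and 65.4%). Scaling moved these medians. Cyclic loess took the all-gene median for KDM1A TG against C57BL/6 to 0.07 and that of the members to -0.06, with 4 of 8 above 0, and quantile normalization gave 0.09 and 0.02, also with 4 of 8. Relative to the all-gene median as deposited, Rbbp4 stood 0.71 higher in KDM1A TG and 0.73 higher in nonTG than in C57BL/6, and Rbbp7 0.37 and 0.49 higher. After either scaling the arrays of Rbbp4 and Rbbp7 still did not overlap with C57BL/6 in either group. The margin of Rbbp7 was narrow after cyclic loess. Its lowest KDM1A TG and nonTG arrays read 6.66 and 6.70, against 6.64 for the highest C57BL/6 array. Quantile normalization left a Rbbp4 difference of 0.62 for KDM1A TG, and cyclic loess one of 0.53. That of Rbbp7 for KDM1A TG came to 0.28 and 0.19 under the same scalings, and that for nonTG to 0.43 and 0.30. Of all genes, 10.1% stood wholly higher in KDM1A TG than in C57BL/6 once quantile normalized and 8.57% with cyclic loess, while 16.1% and 13.7% did so in nonTG. Mta2 also kept its separation of KDM1A TG from nonTG, but its difference from C57BL/6 came to 0.061 after cyclic loess. By contrast, Mbd2 separated KDM1A TG, lower, from nonTG after either scaling and no longer separated nonTG from C57BL/6 after cyclic loess. In KDM1A TG against nonTG, 11.3% of all genes stood wholly higher and 7.94% wholly lower once quantile normalized. With cyclic loess these shares were 10.8% and 7.58%.

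The precision was set by 2 or 3 arrays a group and by a spread taken largely from all genes (0.39 to 0.41 for each member). The members' own scatter differed more. The standard deviation was 0.09 for Rbbp7 in C57BL/6 and 0.63 for Mbd2 in KDM1A TG arrays. The 95% interval of a member reached 0.64 to 0.67 to either side on the log2 scale for KDM1A TG against C57BL/6 and 0.71 to 0.75 for the other comparisons, so that differences under about 1.6-fold could not be told from none for any member, even before adjustment.

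The remaining NuRD subunits on a list of 8 were measured for Hdac1, Hdac2 and Cdk2ap1, and Chd4, Chd5, Mta3, Mbd3 and Kdm1a were not analysed here. 0 of the 3 passed limma's test in any comparison, and 0 reached an unadjusted p under 0.05. Hdac2, a catalytic deacetylase, read 6.49, 6.70 and 6.83 in KDM1A TG and 6.70 and 6.63 in nonTG arrays, against 6.14, 6.25 and 5.81 in C57BL/6 arrays, so it too had line arrays that lay wholly above C57BL/6. Its differences were 0.61 (95% interval -0.03 to 1.25, limma adjusted p = 0.375) for KDM1A TG and 0.60 (-0.11 to 1.31, adjusted p = 0.679) for nonTG. Hdac1, its partner deacetylase, read 5.03, 4.78 and 5.26 in KDM1A TG, 3.72 and 5.54 in nonTG, and 4.76, 4.62 and 4.93 in C57BL/6 arrays, and its nonTG arrays were the lowest and the highest of all. Cdk2ap1, a small subunit of the complex, read 7.41, 7.54 and 7.13 in KDM1A TG and 6.91 and 6.41 in nonTG arrays, with 7.36, 6.72 and 7.30 in C57BL/6 arrays. KDM1A TG exceeded nonTG by 0.70 (-0.02 to 1.43, limma adjusted p = 0.776), with no overlap of arrays.

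Complexes that share subunits with NuRD gave the same count of 0 genes past the adjusted threshold in each comparison. The SIN3 complex, which shares the deacetylases and the RBBP proteins, had 7 of 13 listed genes tested. Suds3, a SIN3 subunit, stood 0.69 higher in KDM1A TG than in C57BL/6 (limma adjusted p = 0.328) and Sap30l 0.90 higher in KDM1A TG than in nonTG (adjusted p = 0.75). Each was the 1 of 7 with an unadjusted p under 0.05 in its comparison. Of all genes, 14.2% and 6.41% reached that level in the same order. Brms1l differed by 0.53 on the log2 scale in KDM1A TG against C57BL/6 (limma adjusted p = 0.441), and Sin3a by 0.47 in KDM1A TG against nonTG (adjusted p = 0.847). Of PRC2, CAF-1, NURF and HAT1 genes, 7 of 9 were tested, with a median of -0.01 for KDM1A TG and -0.42 for nonTG against C57BL/6. The medians of all genes were 0.18 and 0.04. The PRC2 genes Suz12 and Ezh2, the CAF-1 gene Chaf1a and the NURF gene Bptf stood at -0.58, -0.53, -0.58 and -0.42 in nonTG against C57BL/6 (limma adjusted p from 0.689 to 0.761). Chaf1a was dim, from 1.93 in nonTG replicate 2, under the filter level of 2.07, to 2.89 in KDM1A TG replicate 1. The PRC2 genes Ezh1 and Eed and the acetyltransferase gene Hat1 stood above 0 there, at 0.35, 0.25 and 0.34 (limma adjusted p from 0.798 to 0.855). Thus 4 of the 7 lay below 0 and 3 above, where 53.2% of all genes lay above 0.

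The methyl-CpG family had 2 of 6 listed genes tested besides Mbd2. Mbd1 stood 0.75 higher in KDM1A TG than in C57BL/6 (limma adjusted p = 0.301) and Mbd6 0.23 higher (adjusted p = 0.737). Of the 2, Mbd1 reached an unadjusted p under 0.05 there, as 14.2% of all genes did. The other CHD remodellers had 6 of 8 tested. For KDM1A TG against C57BL/6 all 6 were above 0 with a median of 0.40, where 64.9% of all genes were above 0 with a median of 0.18. Among them were Chd2 at 0.57, Chd9 at 0.50, Chd6 at 0.42 and Chd1 at 0.38. For nonTG against C57BL/6, 4 of the 6 were above 0 with a median of 0.10. Chd1 had its smallest p for KDM1A TG against nonTG, with a difference of 0.47. Of 11 factors that recruit or accompany NuRD, such as the zinc finger protein Sall1, 2 were tested. Sall1 had a difference of 0.34 and Bcl6 one of 0.12 for KDM1A TG against C57BL/6 (limma adjusted p = 0.615 and 0.874).

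The pools were checked for their stage and for other cells that a flush of the oviduct can carry. All 9 listed 2-cell genes had a probeset and 8 lay above the filter level of log2 2.07, the exception being Tcstv1. Their mean was 3.97 to 4.35 in KDM1A TG, 3.30 to 3.90 in nonTG and 3.79 to 4.52 in C57BL/6 arrays. Of 13 genes stored by the oocyte 10 were measured, all above the filter level, with means of 4.86 to 5.56 in KDM1A TG, 4.34 to 4.83 in nonTG and 4.69 to 5.60 in C57BL/6 arrays. Of 16 oviduct epithelium markers 15 were measured, all above the filter level, while Ovgp1 was not analysed here. Their summed log2 level was 81.7 to 93.8 in KDM1A TG and 88.0 to 90.1 in nonTG, against 75.9 to 88.2 in C57BL/6 arrays, and 14 of 15 had a difference above 0 in both comparisons with C57BL/6. Stroma and smooth muscle markers, 14 of 14 measured, summed to 62.5 to 82.4, 55.5 to 74.6 and 50.0 to 62.0 in the same order of groups. Of these, 14 of 14 had a difference above 0 in KDM1A TG and 12 of 14 in nonTG against C57BL/6. Among all genes tested, 64.9% were above 0 in KDM1A TG and 53.2% in nonTG against C57BL/6, the background for the oviduct markers too. Of all marker lists, 2 genes passed limma's test in any comparison, both in KDM1A TG against C57BL/6. In that comparison 0.725% of all genes passed. Both markers were picked out after their values were seen, and their tests were not repeated under other scalings. They were the smooth muscle actin gene Acta2, higher by 1.75 (adjusted p = 0.0155), and the neutrophil gene S100a9, which fell by 1.92 (adjusted p = 0.0111). S100a9 does not stand for its list: of 7 blood and immune genes, 4 were above 0 in KDM1A TG and 1 in nonTG against C57BL/6. The mean of that list was 4.78 in C57BL/6 replicate 1, against 3.93 and 3.60 in replicates 2 and 3. Of the cumulus, blood and sperm lists 4 of 10, 7 of 10 and 2 of 7 genes were measured, with mean levels of 2.35 to 2.54, 3.66 to 3.75 and 1.97 to 2.17 in KDM1A TG, 2.53 to 2.71, 2.85 to 3.93 and 2.39 to 2.63 in nonTG, and 2.48 to 2.78, 3.60 to 4.78 and 1.78 to 2.40 in C57BL/6 arrays.

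The members moved differently beside the oviduct markers. Mbd2 was lowest in KDM1A TG replicate 2 (4.95) and C57BL/6 replicate 3 (5.05), whose oviduct marker means of 5.45 and 5.06 were the lowest of their groups. Gatad2b and Mta2 read high in those 2 arrays, at 7.23 and 5.24 in KDM1A TG replicate 2 and at 6.97 and 5.37 in C57BL/6 replicate 3. When the fit carried the mean oviduct level of each array as a covariate, the Mbd2 difference of KDM1A TG from C57BL/6 was -0.54, that of Gatad2b 0.64 and that of Mta2 0.74, and none passed (limma adjusted p = 0.66, 0.654 and 0.627).

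Under that covariate Rbbp4 and Rbbp7 stood at 0.76 and 0.49 for KDM1A TG and at 0.64 and 0.47 for nonTG against C57BL/6 (limma adjusted p from 0.627 to 0.923). The mean of the stroma markers was 4.59, 4.47 and 5.89 in KDM1A TG, 5.33 and 3.96 in nonTG, and 4.24, 4.43 and 3.57 in C57BL/6 arrays. These markers were not used as a covariate, and the part of other cell types in the RNA of the members was not tested.

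**Figure D4:**
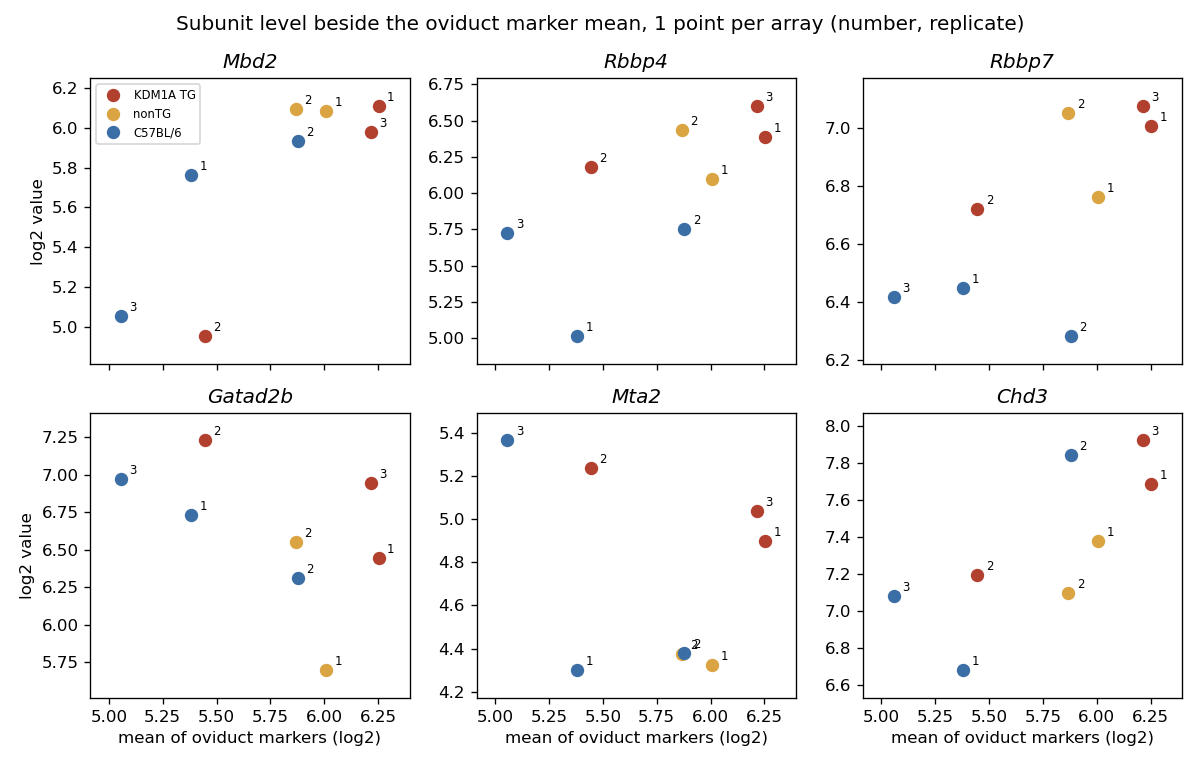
log2 value of 6 NuRD subunits (vertical axes, a separate range for each panel) against the mean log2 level of 15 oviduct epithelium markers (horizontal axis), with 1 point per array, coloured by sire and numbered by replicate. Mbd2 is lowest in the 2 arrays at 5.45 and 5.06, where Gatad2b and Mta2 read 7.23 and 5.24, and 6.97 and 5.37. The array at 5.38, C57BL/6 replicate 1, reads 5.76 in Mbd2, 6.73 in Gatad2b and 4.30 in Mta2.

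Some arrays had wider value distributions than the rest. The interquartile range over all probesets was 2.38 in KDM1A TG replicate 1 and 2.60 in replicate 3, against 1.87 to 2.09 in the other 6 arrays, and array medians ran from 2.73 to 2.86. With those 2 arrays left out, KDM1A TG replicate 2 alone, taken to vary like the other arrays, differed from C57BL/6 by 0.68 in Rbbp4, 0.34 in Rbbp7, 0.56 in Gatad2b and Mta2, and -0.63 in Mbd2. No member passed then (limma adjusted p = 0.998 for each of these 5 genes).

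**Figure D5:**
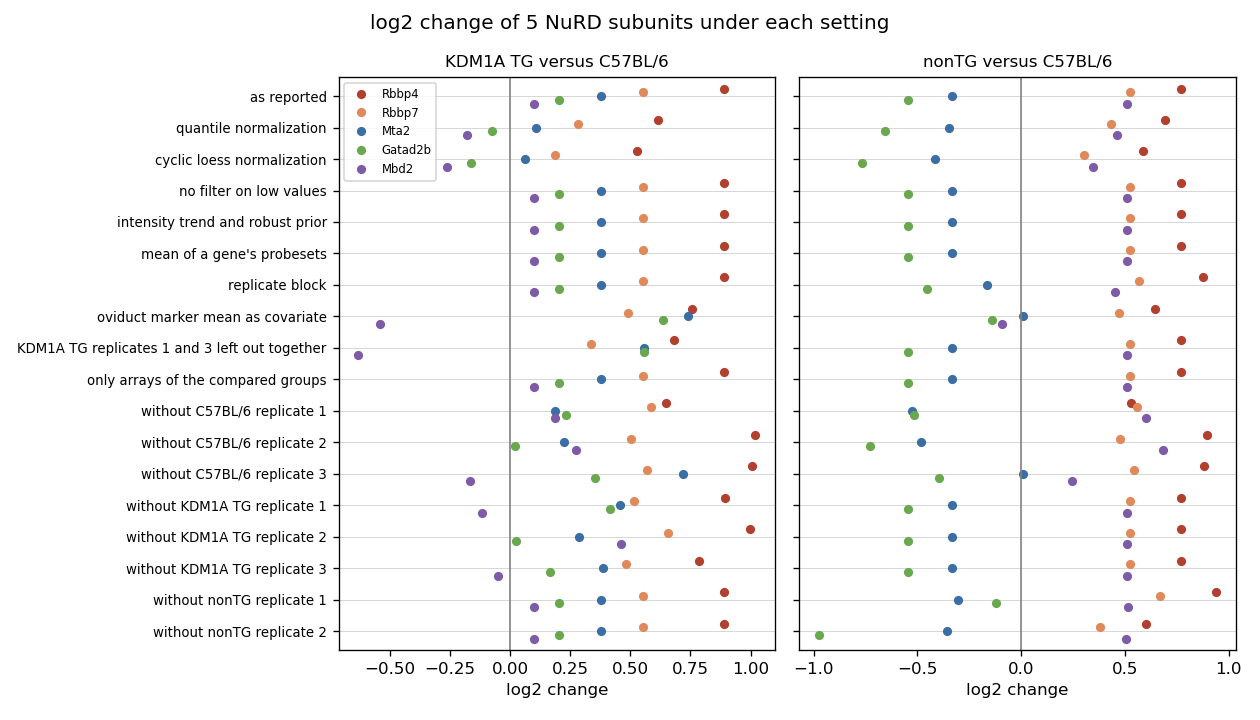
log2 change (horizontal axis) of 5 NuRD subunits against C57BL/6 under each setting (rows), for KDM1A TG on the left and nonTG on the right. Rbbp4 stays between 0.53 and 1.02 on the left and between 0.53 and 0.94 on the right, Rbbp7 stays above 0 in both, and Mbd2 crosses 0 in both.

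The mean profile of the 8 members, each centred on its own mean over the 8 arrays, was lowest in C57BL/6 replicate 1 (-0.28) and highest in KDM1A TG replicate 3 (0.36). Among 10060 other named genes the closest profiles by root mean square difference over 8 arrays were those of Ddah2 (0.095 on the log2 scale), Rbpms (0.106) and Sart1 (0.107), against a median of 0.37 for all of them. Of the members themselves, Rbbp7 lay closest to that mean profile (0.20) and Mbd2 farthest from it (0.47). The mean includes each member itself, and the distance depends on how much a gene varies, so this order does not measure shared behaviour alone.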

How the data were processed

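RNA of 8 pools was measured on Affymetrix arrays, 1 per pool. The authors deposited 1 log2 value for each probeset and array. Tools listed, with no role, per the submitters' processing notes are oligo, limma, RMA and R 3.1.0. How background was corrected, any filter and the build are each not given in the sources used here. No scanner files were used, so no value is called above background.

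Of 22961 probesets, 15745 carried 1 gene symbol in the platform annotation, 1320 several and 5896 were unnamed here. The brightest probeset stood for a gene, which mattered for 574 genes. Genes whose mean over the arrays exceeded log2 2.07, the 30th percentile over probesets, were tested. Group means were fitted on all 8 arrays in limma 3.58.1 (lmFit, eBayes; R 4.3.3), two-sided, with Benjamini-Hochberg adjustment over all 11444 genes at 0.05. The fit was tested on simulated data. Intervals are 95%. Pairs of arrays correlated at 0.889 to 0.967 and none held identical values. The arrays' number limits the precision.

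Members, lists and tests were chosen with earlier results of these data known. All 8 members and the other NuRD subunits are named, and up to 4 genes of each further list by smallest p. Genes with the most similar profile are the nearest 3, leaving out predicted genes, small RNAs and olfactory and vomeronasal receptors. Alternatives covered scaling, filter, variance model, probesets, arrays in the fit, replicate number, a marker covariate and left-out arrays.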

Additional observations from a re-analysis of the deposited data

How the results depend on the processing

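The count of 0 members past limma's adjusted threshold held under all 17 alternatives for each pairwise comparison and all 16 for the F test, and the lowest adjusted p of a member was 0.0968, for Rbbp4 without KDM1A TG replicate 2. The alternatives were not all distinct. For KDM1A TG against C57BL/6, the fit of the 2 groups alone and the fits without nonTG replicate 1 or 2 gave the same values for the members. Counts over all genes moved more. For KDM1A TG against C57BL/6 they were 83 as reported, 5 after quantile normalization and 5 after cyclic loess, 138 without the filter, 128 with the intensity trend and robust prior, 7 with the oviduct covariate, 1 without KDM1A TG replicates 1 and 3, and 9 to 254 without single arrays, lowest without KDM1A TG replicate 3 and highest without C57BL/6 replicate 2. For nonTG against C57BL/6 they were 15 as reported and, in that order, 1, 1, 44, 30, 4, 6 and 3 to 80 (lowest without nonTG replicate 2, highest without C57BL/6 replicate 2), with 6 in a fit of the 2 groups alone and 23 with the replicate block. For KDM1A TG against nonTG they were 5 as reported, 2 after either scaling, 9 with the trend, 3 with probesets averaged, 3 without KDM1A TG replicates 1 and 3, and 2 to 17 without single arrays, lowest without KDM1A TG replicate 2 or 3 and highest without nonTG replicate 1. The F test gave 89 as reported, 3 after quantile normalization, 4 after cyclic loess, 25 with probesets averaged, 8 with the covariate, 7 without KDM1A TG replicates 1 and 3, and 18 to 205 without single arrays, lowest without KDM1A TG replicate 3 and highest without C57BL/6 replicate 2. The causes were not tested.

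Directions held under every alternative for Mta2, Rbbp4 and Rbbp7 in KDM1A TG against C57BL/6, for Gatad2b, Rbbp4 and Rbbp7 in nonTG against C57BL/6, and for Mta2, Gatad2b and Mbd2 in KDM1A TG against nonTG, which are 9 of 24 member differences. Part of this was fixed in advance. Changing the filter or the variance model, or leaving out arrays of the group not compared, cannot move a difference. Among the members, averaging probesets can move Chd3 alone. The sizes of these 9 differences moved without single arrays, from 0.19 to 0.72 for Mta2, 0.65 to 1.02 for Rbbp4 and 0.48 to 0.66 for Rbbp7 in KDM1A TG against C57BL/6. In nonTG against C57BL/6 the ranges were -0.97 to -0.12 for Gatad2b, 0.53 to 0.94 for Rbbp4 and 0.38 to 0.67 for Rbbp7. In KDM1A TG against nonTG they were 0.62 to 0.79 for Mta2, 0.32 to 1.18 for Gatad2b and -0.63 to -0.047 for Mbd2, the last being nearest 0 without KDM1A TG replicate 2. The other differences changed sign somewhere, each without passing. For KDM1A TG against C57BL/6 quantile normalization gave -0.12 for Mta1, -0.075 for Gatad2b and -0.18 for Mbd2, and cyclic loess -0.19, -0.16 and -0.26. The oviduct covariate gave -0.082 for Chd3, -0.071 for Mta1, 0.40 for Gatad2a and -0.54 for Mbd2. Without KDM1A TG replicates 1 and 3 these 4 stood at -0.0062, -0.13, 0.23 and -0.63. Without single arrays Gatad2a ran from -0.20 to 0.27 and Mbd2 from -0.17 to 0.46. For nonTG against C57BL/6 Chd3 stood at -0.046 after quantile normalization, -0.21 after cyclic loess and -0.42 with the covariate, which also gave 0.0070 for Mta2, 0.13 for Gatad2a and -0.091 for Mbd2. Without single arrays Chd3 ran from -0.22 to 0.36, Mta1 from -0.45 to 0.23, Mta2 from -0.52 to 0.011 and Gatad2a from -0.85 to 0.31. For KDM1A TG against nonTG Rbbp4 and Rbbp7 stood at -0.074 and -0.15 after quantile normalization and -0.058 and -0.11 after cyclic loess. Without KDM1A TG replicates 1 and 3, Chd3, Mta1, Rbbp4 and Rbbp7 stood at -0.043, -0.020, -0.089 and -0.19. Without single arrays Mta1 ran from -0.063 to 0.62, Gatad2a from -0.34 to 0.81, Rbbp4 from -0.046 to 0.29 and Rbbp7 from -0.12 to 0.17.

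With the replicate block, Rbbp7 stood at -0.017 for KDM1A TG against nonTG, and no member passed. Deviations of same-numbered arrays of KDM1A TG and C57BL/6 from their group means correlated at -0.07, -0.38 and -0.11 across genes, those of nonTG and C57BL/6 at 0.0073 and -0.25, and those of KDM1A TG and nonTG at 0.11 and 0.18. With only 2 nonTG arrays their deviations are equal and opposite, so like-numbered and unlike-numbered correlations with them differ only in sign. Arrays of unlike number reached 0.26, for C57BL/6 replicate 3 and nonTG replicate 2. The numbers were not taken to pair the pools, as not every like-numbered pair exceeded 0.1, but these correlations cannot settle the matter. With 2 or 3 arrays a group and no scanner files, signal over background could not be judged.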
